A study of Rattus norvegicus with 56 samples.

Results

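The comparison described here is that of intermittent theta burst stimulation (iTBS) with sham stimulation at 0 h, the earliest time at which RNA was taken. Its members were chosen by their titles and comprise the 4 arrays titled iTBS_0H and the 4 arrays titled SHAM_0H, which make 8 of the 56 arrays of the series. All were primary cultures of hippocampal neurons from E18 Sprague-Dawley rat embryos, a preparation without the layered circuits of the hippocampus. In the iTBS group the dishes sat centered on an inverted figure-eight coil, inside an insulated incubator, and pulses were given in short bursts at 15% of the stimulator's maximum output. Sham dishes spent the session in the same incubator but some 20 cm from the coil, so both groups had left the home incubator and iTBS dishes alone lay on the coil. The time of 0 h counts from the end of the stimulation session, and not from its first pulse. For context, the same time also holds 4 arrays of untreated control cultures and 3 arrays of cultures given 1 Hz stimulation, a regular train of single pulses. The labels do not say whether replicates came from separate cultures or litters, so p-values measure the spread between these samples, which may be technical.

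Neurons that fire strongly switch on a rapid program of transcription. Calcium entry activates kinases that phosphorylate factors already bound at promoters, such as CREB at the cAMP response element (CRE) and serum response factor at the CArG box. These induce immediate-early genes, among them the transcription factors Fos, Junb, Egr1, Npas4 and Nr4a1, the synaptic protein gene Arc, the growth factor gene Bdnf and the phosphatase gene Dusp1, which shuts MAP kinases off again. Messages of ribosomal proteins and of the respiratory chain are abundant in neurons and are usually controlled more through translation and stability than by such bursts of transcription.

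Each probe has a level, which is its log2 signal after z-scoring within the array, rescaled to log2 units so that the mean of each array is 0. A change is the mean level of iTBS arrays minus that of sham arrays. The 75th percentile of the unscaled processed signal was 3236 to 4254 intensity units on the iTBS arrays and 3878 to 7005 on the sham arrays, a difference in log2 of −0.59 (two-sided exact permutation test, p = 0.0857, where 0.0286 is the smallest value that 4 against 4 arrays can give). The SD of the log2 signals of an array was 3.76 to 4.00 with iTBS and 4.11 to 4.17 with sham, so the groups did not overlap in it. Between 70.9% and 76.8% of spots were well above background on the 8 arrays. The sample numbers in the descriptions form 4 series, here called A to D, and each held 1 sham and 1 iTBS array at 0 h. Both arrays lay on the same slide in series A, B and C. In series D the iTBS array lay on another slide than its sham array. Markers of neurons were well above background on all 8 arrays for 15 of 15 genes, as were 14 of 15 astrocyte markers, 15 of 15 oligodendrocyte markers and 6 of 12 microglial markers, so the cultures held RNA of glia as well. The mean level of the neuronal markers was 6.19 to 6.80 on iTBS arrays and 6.05 to 6.71 on sham arrays. In RNA of whole cultures, fewer cells of a type and less RNA per cell cannot be told apart.

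No rise of the immediate-early genes over sham was detected at the end of iTBS. Of the 37 immediate-early transcription factor genes listed and tested, 26 had a lower and 11 a higher mean level with iTBS, with a median change of −0.15, and none passed the test. Over all 35694 probes tested, 43.2% had a change above 0 and the median change was −0.05. The percentage of probes past an adjusted p of 0.05 was 0.00 (limma, Benjamini-Hochberg), and 3.94% had an unadjusted p under 0.05. Within series, the median change of the 37 genes was −0.22 in series A, −0.25 in B and −0.16 in C, but 0.12 in D. In this fit, which does not pair the arrays of a series, its sign turned when some single arrays were left out. It was 0.07 without sham replicate 1 (series B), 0.06 without sham replicate 2 (series A) and 0.12 without iTBS replicate 2 (series C). Without sham replicate 3 (series C) it was −0.45. Leaving out 1 array keeps its partner of the same series. These values, and those given below without single arrays, therefore also carry differences between series.

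The promoters of 3 genes are shown because they carry the elements through which activity reaches such genes. Each line gives the 190 bases before the annotated start on the plus strand of GRCr8 from RefSeq, 5′ to 3′. Capitals mark the full CRE TGACGTCA in Dusp1, the CRE core CGTCA or TGACG in Nr4a1 and Junb, and in Junb also the TATA sequence TATAAA.
Dusp1, chr10:17184663-17184852: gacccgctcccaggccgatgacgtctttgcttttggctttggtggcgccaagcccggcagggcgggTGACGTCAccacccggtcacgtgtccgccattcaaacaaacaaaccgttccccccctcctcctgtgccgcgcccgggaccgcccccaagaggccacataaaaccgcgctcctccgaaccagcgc
Nr4a1, chr7:134259948-134260137: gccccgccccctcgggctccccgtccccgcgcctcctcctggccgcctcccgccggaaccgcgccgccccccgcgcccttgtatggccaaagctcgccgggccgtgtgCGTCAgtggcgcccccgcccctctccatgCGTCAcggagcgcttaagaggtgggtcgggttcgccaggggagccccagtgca
Junb, chr19:40080936-40081125: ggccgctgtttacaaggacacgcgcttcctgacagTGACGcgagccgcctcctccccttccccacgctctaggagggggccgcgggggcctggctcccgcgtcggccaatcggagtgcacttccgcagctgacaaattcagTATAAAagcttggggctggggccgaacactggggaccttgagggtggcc
The CRE of Dusp1 begins 124 bases before the start, the CRE cores of Nr4a1 begin 82 and 53 bases before it, and in Junb the core begins 155 and the TATAAA 49 bases before it. Promoters were found for 27 of the 37 factor genes. In the 250 bases before the start, searched on both strands, 15 of the 27 (55.6%) held the CRE core, against 19% of 27457 rat promoters, and 5 of the 27 (18.5%) held a CArG box, against 1.5%. The full CRE, which contains the core, was in 4 of the 27 (14.8%), against 1.7%. Promoters of cytosolic ribosome genes held the core in 41.7% and those of respiratory chain genes in 41.5%. In the same order they held the CArG box in 1.67% and 3.08%, and the full CRE in 5% and 4.62%. Such a match describes the letters in the window, and binding was not measured.

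Fos, whose product joins Jun proteins in the AP-1 factor, had levels of 2.31, 2.75, 0.74 and 1.84 on the sham arrays of series A to D. On the iTBS arrays the levels of Fos were 1.37, 2.21, −1.03 and 2.10 in the same order. The groups overlapped widely, since series C was low in both, and 3 of 4 series had the lower value with iTBS. The change of Fos was −0.75 (SE 1.17, limma adjusted p = 1.00). Without iTBS replicate 2 (series C), with the low sham array of that series kept, it was −0.02. Junb, another AP-1 member, stood at 0.59, 0.40, −1.01 and 0.28 in sham and at −0.31, 0.14, −1.44 and −1.94 in iTBS. It was lower with iTBS in 4 of 4 series, by 0.96 on average (SE 0.80, limma adjusted p = 1.00), although the groups overlapped. Mafk, a small Maf factor without an activation domain, was lower on each iTBS array than on any sham array, with a change of −1.05 (SE 0.47, limma adjusted p = 1.00). One iTBS array, that of series D at −2.75, lay far below the rest, and without it the change of Mafk was −0.45.

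Of the factors named for neuronal activity, Egr1, a zinc finger factor, had levels of 3.28, 4.16, 3.05 and 3.62 in sham and of 3.0, 3.20, 1.87 and 3.76 in iTBS. Its change was −0.57 (SE 0.95). Npas4, which is induced by calcium entry in particular, was at −0.36, −0.32, −2.69 and −1.03 in sham and at −1.58, −1.13, −3.97 and −0.91 in iTBS, near background on some arrays, since 3 of 4 arrays of each group were well above it. Its change was −0.80 (SE 1.17). For Egr1 and Npas4 alike, series D went the other way from A, B and C. Without iTBS replicate 2 (series C), with the sham array of that series kept, their changes were −0.21 and −0.11. Nr4a1, an orphan nuclear receptor, did not move in the mean, with 5.07 ± 0.44 in sham and 5.07 ± 0.32 in iTBS (SD, n = 4 arrays each), and its sign flips when single arrays are left out. Egr3, a further zinc finger factor, had a change of −0.57 (SE 0.46), which was −0.18 without the iTBS array of series D. Klf2, a Krüppel-like factor, was lower in 4 of 4 series, with a change of −0.64 (SE 0.62). None of these changes passed the test (limma, adjusted p = 1.00 for each).

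None of the effector genes passed the test either. Arc, whose protein acts at dendritic spines, was at 4.63, 5.02, 2.59 and 2.74 in sham and at 4.18, 5.11, 1.98 and 2.53 in iTBS. The change of Arc was −0.30 (SE 1.01), and within series A to D the differences were −0.44, 0.08, −0.61 and −0.21. Without iTBS replicate 2 (series C), with the low sham array of that series kept, the change was 0.19. Bdnf, the neurotrophin that signals through TrkB, was at 4.09, 3.62, 1.85 and 3.27 in sham and at 3.40, 3.55, 1.28 and 2.33 in iTBS. Each series was lower with iTBS, with differences of −0.69, −0.08, −0.57 and −0.94 in A to D, and the mean change was −0.57 (SE 0.73). Without iTBS replicate 2 (series C), with the low sham array of that series kept, the change was −0.12. Dusp1, the MAP kinase phosphatase, was at −0.01, 0.07, −0.26 and 1.15 in sham and at −0.48, −0.86, −0.96 and 0.48 in iTBS, again lower in each series, by 0.69 on average (SE 0.72). It was named after its values were seen, as the rule on smallest p had named its relatives Dusp10 (change of −0.75, SE 0.44) and Dusp2 (−0.55, SE 0.46). Without iTBS replicate 1 (series B) the changes of Dusp10 and Dusp2 were −0.37 and −0.04, and without sham replicate 4 (series D) that of Dusp1 was −0.39. Of 26 activity-induced effector genes 12 were higher and of 13 MAP kinase feedback genes 3 were higher, with median changes of −0.05 and −0.12, and no member of either list passed the test. The highest change among the effectors was that of Pcsk1, a convertase that processes neuropeptide precursors, at 0.73 (SE 0.53), while Homer1, a scaffold gene of excitatory synapses, was at 0.13 (SE 0.13).

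**Figure D1:**
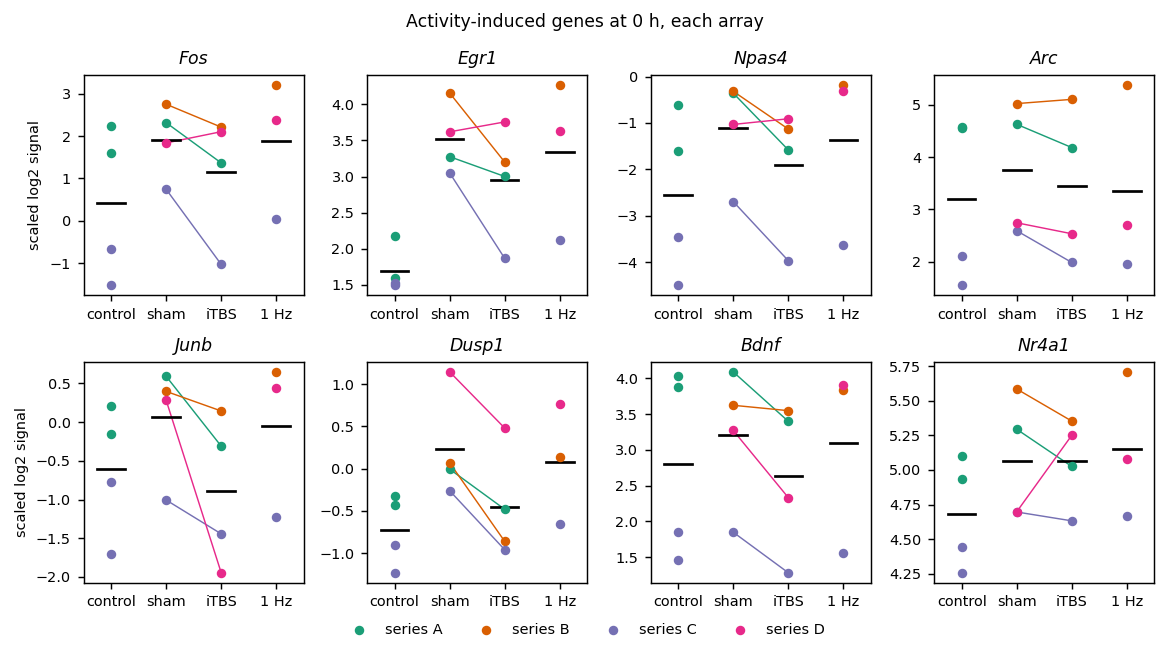
Levels (scaled log2 signal, vertical axis) of 8 activity-induced genes on every 0 h array of untreated control, sham, iTBS and 1 Hz cultures. Points are arrays coloured by series, black bars are group means, and lines join sham and iTBS arrays of 1 series. Dusp1, Junb and Bdnf fall along each of the 4 lines, while series C lies lowest in sham and in iTBS for Fos, Npas4, Arc and Bdnf.

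Fitting the pairs of 1 series together narrowed these errors, because arrays of a series deviated in common. In a fit over the 55 arrays that blocked on series within each time point, called the block fit here, the unadjusted p was 0.000695 for Dusp1, 0.00150 for Junb, 0.00630 for Bdnf and 0.0128 for Fos. The SE in that fit was 0.27 for Junb, 0.19 for Bdnf, 0.28 for Fos, 0.21 for Arc and 0.30 for Egr1. The adjusted p in that fit (limma) was 0.0768 for Dusp1, 0.0961 for Junb, 0.149 for Bdnf and 0.190 for Fos, so none of these 4 passed. In that fit, 8.36% of all probes were lower and 7.88% higher with an unadjusted p under 0.05, against 3 lower and 0 higher of the 37 factor genes. With quantile normalization the counts were again 3 lower and 0 higher, against 5.70% and 6.62% of all probes, and the changes of Dusp1, Junb, Bdnf and Fos were −0.59, −0.85, −0.48 and −0.63, so each kept its sign in that scaling.

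In untreated cultures the mean levels of several of these genes lay below those in sham, though no such difference passed the test for the genes named here. Fos was 1.5 higher in sham than in control (SE 1.17), Egr1 1.83 higher (SE 0.95), Npas4 1.45 higher (SE 1.17) and Dusp1 0.96 higher (SE 0.72). These differences and SEs are from the fit without a block. In the block fit, whose own estimates can differ, the adjusted p (limma) was 0.139 for Egr1, 0.306 for Dusp1, 0.50 for Fos and 0.920 for Npas4. The median difference of sham from control over the 37 factor genes was 0.33, and that of all probes 0.02. The control arrays came from series A and C alone, so series B and D had no control of their own. The 1 Hz arrays of 0 h came from series B, C and D, so series A had none. The 1 Hz cultures of 0 h were close to sham, with a median change of −0.06 over the 37 genes and changes of −0.03 for Fos and −0.11 for Junb. The difference of the group means of iTBS and 1 Hz at 0 h was −0.72 for Fos and −0.84 for Junb. In the block fit, whose own estimates can differ, the adjusted p was 0.515 for both (limma).

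The largest coordinated difference at 0 h lay in genes for the protein components of the cytosolic ribosome, and it depended on how the arrays were scaled. Of 79 listed genes 76 were tested, and each of the 76 had a higher mean level with iTBS, with a median change of 0.62 and a range of 0.20 to 0.92. The median was 0.45 in series A, 0.95 in B, 0.46 in C and 0.69 in D. For 43 of the 76 the groups did not overlap, against 1.58% of all probes. With scaling to the 75th percentile the median change was 0.30, with quantile normalization it was 0.03 with 42 of 76 higher (47.1% of all probes), and with normexp background correction and quantile normalization it was 0.05. Under quantile normalization the groups overlapped for all 76, and 0.787% of all probes were higher without overlap. None of the genes passed the test at its probe of highest signal in the fit without a block, in which 55 had an unadjusted p under 0.05 and a higher level, against 2.47% of all probes.

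Changes of probes in general followed their signal level under z-scores. Split by mean level into 8 bins of like size, the probes of the highest bin had a median change of 0.17 and 82.7% of them were higher with iTBS, whereas the bins ranked 4 and 5 had a median of −0.15 each. Among the 330 probes with a mean level of 9 or more whose symbol was not on the ribosomal or respiratory chain lists, of which 157 had a symbol and the others could belong to such genes, the median change was 0.50, 98.8% were higher, and 43% did not overlap between the groups. Under quantile normalization the median of these 330 was −0.03. The ribosomal genes had a median level of 10.01. The SD of the arrays, which did not overlap between the groups, moved with these changes, and its part in them was not tested.

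**Figure D2:**
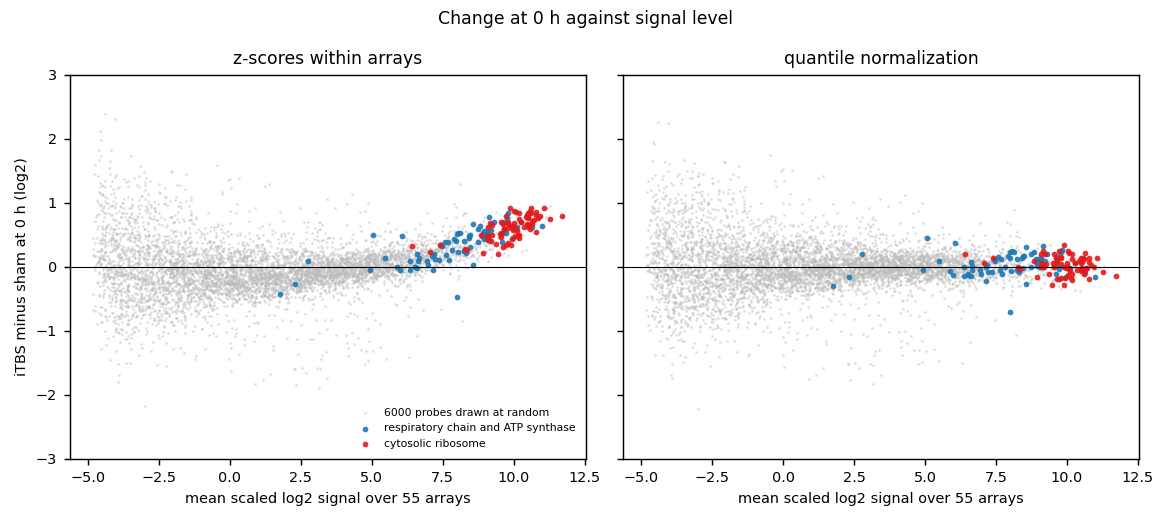
Change at 0 h (iTBS minus sham, log2, vertical axis) against mean level over 55 arrays (horizontal axis), with z-scores within arrays on the left and quantile normalization on the right. Red points are 76 cytosolic ribosome genes, blue points 73 genes of the respiratory chain and ATP synthase, and grey points other probes. The red points lie between 0.20 and 0.92 on the left, along the upward bend of the grey points, and centre on 0.03 on the right.

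Rplp1, a protein of the stalk that recruits elongation factors, and Rps20 of the small subunit had changes of 0.92 (SE 0.37 each), as had Rpl39 at the exit tunnel (SE 0.34); they were named after their values were seen. Rpl39 stood at 9.28, 10.06, 9.82 and 9.29 in sham and at 10.16, 11.33, 10.36 and 10.28 in iTBS. Each iTBS array was above each sham array for it, with the array of series B highest. Rps27 and Rps29 of the small subunit were among the 8 genes with the smallest p on the higher side, with changes of 0.85 (SE 0.30) each, and neither passed. In quantile-normalized values the changes were 0.33 for Rpl39, 0.21 for Rps27 and 0.13 for Rps29. The messages of ribosomal proteins begin with a pyrimidine tract that couples their translation to growth signals. In the RefSeq windows, 36 of the 60 ribosomal genes with a sequence (60%) held 8 pyrimidines in a row between 10 bases before and 15 bases after the start, against 8.79% of all promoters and 4 of 65 (6.15%) of the respiratory chain genes.

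Respiratory chain genes shifted the same way and were likewise close to 0 after quantile normalization. Of the 73 genes of complexes I to IV and ATP synthase that were tested, 62 were higher with iTBS, with a median change of 0.39, and the median with quantile normalization was 0.01. Complex IV, cytochrome c oxidase, had a median of 0.49 with 11 of 11 genes higher, ATP synthase 0.44 with 14 of 16, complexes II and III 0.24 with 11 of 13, and complex I 0.22 with 26 of 33. Complex IV kept a median of 0.11 under quantile normalization, with 8 of 11 higher. Cox6c, a small nuclear-encoded subunit of complex IV, was at 9.30, 9.93, 9.82 and 9.33 in sham and at 10.15, 11.17, 10.29 and 10.14 in iTBS, without overlap (change of 0.84, SE 0.34, limma adjusted p = 1.00; 0.26 with quantile normalization). Atp5f1e, the epsilon subunit of ATP synthase, changed by 0.68 (SE 0.24), Atp5if1, the inhibitor of that enzyme, by 0.44 (SE 0.16), Uqcrh of complex III by 0.50 (SE 0.22) and Ndufa4 by 0.56 (SE 0.21). The quantile values for these were 0.13, 0.13, 0.17 and 0.12. By contrast, the 17 genes of the citric acid cycle had a median change of −0.01 and the 17 of glycolysis 0.02, and the median levels of those lists were 5.63 and 7.19.

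**Figure D3:**
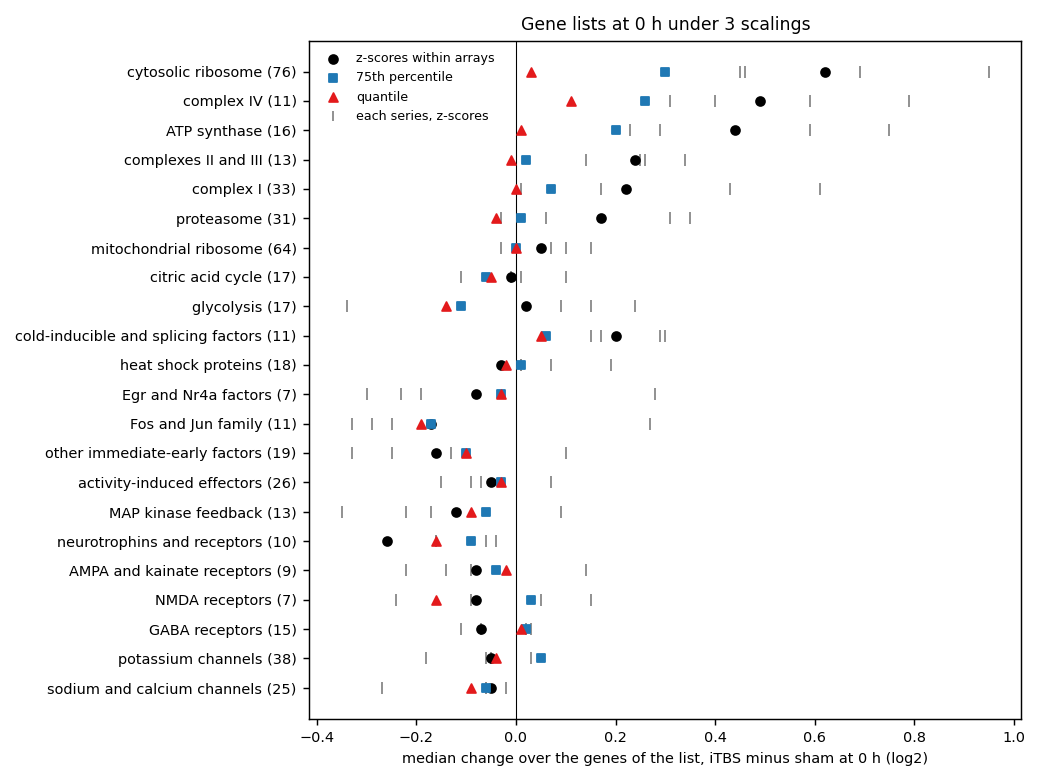
Median change at 0 h (iTBS minus sham, log2, horizontal axis) over the genes of each list, with the number of genes tested in parentheses. Black circles are z-scores within arrays, blue squares 75th percentile scaling, red triangles quantile normalization, and grey ticks the 4 series with z-scores. The lists of the cytosolic ribosome and of the respiratory complexes move from between 0.22 and 0.62 to between −0.01 and 0.11 with quantile normalization. The medians of the immediate-early, effector, MAP kinase feedback and neurotrophin lists are below 0 in all 3 scalings. So are those of the AMPA and kainate receptors, the sodium and calcium channels and the citric acid cycle.

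No probe passed an adjusted p of 0.05 in the comparison of iTBS with sham in the fit without a block (limma), although 1405 had an unadjusted p under 0.05. Of these, 880 were higher (2.47%) and 525 lower (1.47%), against 1145 (3.21%) and 182 (0.510%) with 75th percentile scaling and 585 (1.64%) and 414 (1.16%) with quantile normalization. The median of all probes moved from −0.05 to 0.07 with 75th percentile scaling. In the block fit 11 probes passed (0.0308% of all probes), of which 7 were higher and 4 lower (0.0196% and 0.0112%). This count was 0 when that fit left out series B or series D at 0 h, 34 without series A and 12 without series C, and 0 with quantile normalization, 2 with the 75th percentile and 3 with normexp.

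Among the 11 was 1 of the 2 probes of Rpl35a, a gene of the large ribosomal subunit, and both of its probes were higher with iTBS. The levels of the probe that passed were 6.54, 6.92, 6.98 and 6.59 in sham and 6.92, 7.93, 7.35 and 7.14 in iTBS. Its change was 0.57, with adjusted p = 0.0207 in the block fit (limma). The other probe of Rpl35a, of higher signal, changed by 0.86 with adjusted p = 0.0548. With quantile normalization the changes of both were 0.38 and 0.24, and neither passed. Astn2, which encodes a neuronal membrane protein that helps to sort surface proteins during migration, fell in the block fit. It was at −2.00, 0.92, −2.99 and −2.25 in sham and at −4.22, −3.33, −4.47 and −3.30 in iTBS, with 3 sham arrays and 0 iTBS arrays well above background. Sham was at least 2.65-fold above iTBS for Astn2, a bound that sets the sham mean against the signal just above background on the iTBS arrays (limma adjusted p = 0.0207 in the block fit, 0.795 without a block). Without sham replicate 1 (series B) the change of Astn2 was −1.42, against −2.25 with all arrays. The bound includes that array, the highest of the sham group, and was not computed without it. With normexp the change of Astn2 was −0.56.

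The other 9 probes could not be matched to a gene symbol. A_44_P1099899 was at −4.54, −3.59, −4.64 and −5.22 in sham, not well above background on any sham array, and at −0.62, −2.08, −1.67 and −2.55 in iTBS, above background on all 4. Its signal was at least 3.23-fold higher with iTBS (limma adjusted p = 0.0207 in the block fit and 0.0596 without a block). It also passed without a block under 75th percentile scaling (adjusted p = 0.0380, limma) and quantile normalization (0.0268), the single probe to do so in each (0.00280% of all probes). With normexp its change was 0.46, against 2.77 with z-scores, and 0 probes passed without a block. The size of its change thus depended on how signals near background were handled. In untreated control and 1 Hz cultures its mean levels were −4.52 and −4.25, near those of sham. A_44_P1136921 changed by 1.00. With 1 Hz its change was 0.90 against all 4 sham arrays. Series A had no 1 Hz array, and its sham array was the lowest, at −2.08. A_44_P1118891 was lower with iTBS in each series and had a change of −0.93. With 1 Hz its change was −0.75, where the sham array of series A was the highest, at 5.46. These 1 Hz values do not pair the series. A_44_P782378 was lower in each series, with a difference of −1.14 that is imprecise because 1 of 4 iTBS arrays and 4 of 4 sham arrays were well above background. A_44_P1112053 fell by 1.28, with the iTBS array of series D lowest at −2.31. The remaining 4, A_44_P293187, A_44_P1359923, A_44_P643604 and A_64_P084698, rose by 0.54 to 0.66. Single arrays moved some of these sizes in the fit without a block. Without iTBS replicate 4 (series D) the changes of A_44_P1118891 and A_44_P1112053 were −0.53 and −0.80, and that of A_44_P1118891 was −0.58 without sham replicate 2 (series A). Without iTBS replicate 1 (series B) the changes of A_64_P084698, A_44_P293187 and the Rpl35a probe were 0.37, 0.39 and 0.38.

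For 4 of the 11 probes sham itself differed from untreated control in the block fit, against 63 of all 35694 probes. Each of the 4 differed in the direction opposite to the change with iTBS. The sizes given are differences of group means over all series. The adjusted p-values come from the block fit, whose own estimates can differ, since controls came from series A and C alone. A_44_P1118891 was 1.11 higher in sham than in control (limma adjusted p = 5.79e-06), with group means of 3.31 in control, 4.41 in sham and 3.48 in iTBS. A_44_P643604 was lower in sham than in control by a difference of −1.07 (adjusted p = 5.79e-06, limma), with means of 5.95, 4.88 and 5.42 in the same order. A_44_P1136921 had a difference of −1.43 (adjusted p = 8.74e-05, limma) and means of 0.32, −1.12 and −0.12, and A_44_P1112053 one of 0.91 (adjusted p = 0.0269, limma) and means of −0.49, 0.42 and −0.86. In the first 3 the iTBS mean lay between control and sham, and in A_44_P1112053 it lay below both. These differences share the sham arrays with the comparison of iTBS and sham by which the probes were picked, which by itself favours opposite signs. They are given side by side and not as independent results.

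**Figure D4:**
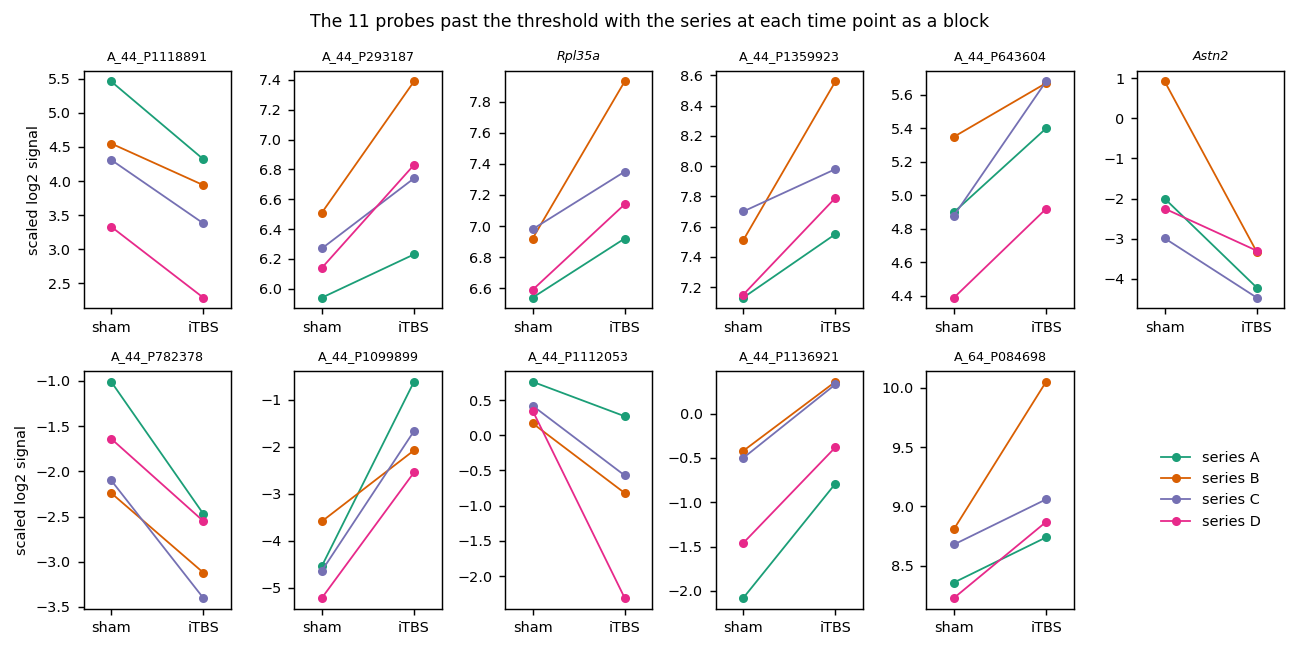
Levels (scaled log2 signal, vertical axes with their own ranges) of the 11 probes that passed an adjusted p of 0.05 in the block fit. Each line joins the sham and the iTBS array of 1 series, and all 4 lines of each probe run the same way. A_44_P1099899 and Astn2 show the steepest differences, both near background in 1 of the groups.

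Genes with a symbol and the smallest p-values without a block were of 2 kinds. The higher ones were at the bright end, where levels moved together. They included Rps27, Rps29 and Atp5f1e together with Oas1b, an interferon-induced antiviral gene, Sub1, a transcriptional coactivator, Polr2k, a small subunit shared by RNA polymerases, and LOC102547275. Polr2k was at 6.55, 7.03, 6.97 and 6.58 in sham and at 6.93, 7.72, 7.26 and 7.16 in iTBS, a change of 0.49 (SE 0.17), and with quantile normalization 0.29. Oas1b changed by 0.63 (SE 0.22) and Sub1 by 0.44 (SE 0.15), with 0.27 and 0.15 under quantile normalization. The adjusted p was 1.00 for each of these without a block (limma).

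The lower ones mostly turned on few arrays or on signal near background. Kif9, a kinesin gene, was at −2.16, −2.26, −1.22 and −0.67 in sham and at −3.31, −5.03, −2.04 and −4.30 in iTBS, well above background on 4 sham arrays and 1 iTBS array (change of −2.09, SE 0.72, adjusted p = 1.00 without and 0.0526 with the block, limma). Pcgf3, a Polycomb group gene, was at 3.5, 3.20, 3.38 and 3.35 in sham and at 3.37, 2.88, 3.05 and 0.80 in iTBS, so that series D set its change of −0.83, which was −0.26 without that array. Pdss2, which acts in ubiquinone synthesis, behaved likewise, with a change of −1.29 that was −0.37 without the iTBS array of series D. Pnpt1, a mitochondrial RNA-processing enzyme gene, changed by −1.11 and by −0.54 without that array, and Lrrc46, a leucine-rich repeat gene, by −1.44 and −0.83. Ccr7, a chemokine receptor gene, changed by −1.38 and Wdpcp, a planar polarity and ciliary gene, by −1.05, with −0.90 for Ccr7 without the iTBS array of series D. Sema3d, a secreted axon guidance gene, was well above background on 4 sham arrays and 0 iTBS arrays, and sham was at least 1.55-fold above iTBS. None passed the test in either fit (limma, adjusted p = 1.00 without a block).

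Genes of synaptic transmission and excitability stayed close to the rest of the array. The AMPA and kainate receptor genes had a median change of −0.08 over 9 genes, the NMDA receptor genes −0.08 over 7, the GABA receptor genes −0.07 over 15, the potassium channel genes −0.05 over 38 and the sodium and calcium channel genes −0.05 over 25. None of their members passed. Gabrd, the delta subunit of extrasynaptic GABA-A receptors, was at 2.83, 2.38, 2.25 and 2.30 in sham and at 2.08, 2.12, 2.16 and 1.96 in iTBS, without overlap (change of −0.36, SE 0.14, limma adjusted p = 1.00, and 0.165 in the block fit). Gabrd is among the genes that the study listed from these samples, so it is not independent evidence. Scn4b, a sodium channel beta subunit, was lower in 4 of 4 series, with a change of −0.67 (SE 0.33). Nlgn2, an adhesion protein of inhibitory synapses, had a change of 0.48 (SE 0.24), and Kcnt1, a sodium-activated potassium channel, one of −0.64 (SE 0.33). Without the iTBS array of series D these were 0.27 and −0.16. The lists that the study drew for learning and memory and for Alzheimer's disease had median changes of −0.01 each, over 13 and 12 genes, and were chosen on these samples.

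Stress-related genes did not form a common pattern. Of 18 heat shock protein genes 8 were higher, with a median change of −0.03. Hspa8, the constitutive cytosolic chaperone, was at 10.79, 11.09, 10.70 and 10.68 in sham and at 11.54, 12.14, 11.46 and 11.79 in iTBS, a change of 0.92 (SE 0.39) that was 0.11 with quantile normalization. Hspe1, a mitochondrial chaperonin, changed by 0.49 (SE 0.26; adjusted p = 0.0532 in the block fit, limma). Of 11 cold-inducible and splicing factor genes 10 were higher, with a median change of 0.20 and with 0.05 under quantile normalization. Rbm3, an RNA-binding protein induced by mild cooling, was higher in 4 of 4 series, from 8.31 ± 0.29 in sham to 8.76 ± 0.26 in iTBS (SD, n = 4 arrays each; change of 0.46, SE 0.26, limma adjusted p = 1.00; 0.14 with quantile normalization). The 31 proteasome genes had a median change of 0.17 with 22 higher, Psmd1 among them at 0.46 (SE 0.18; 0.06 with quantile normalization). The 64 mitochondrial ribosome genes had a median of 0.05, with the highest change in Mrpl10 at 0.96 (SE 0.36; 0.43 with quantile normalization).

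Markers of cell types gave no change that passed. The neuronal markers had a median change of 0.12 with 8 of 15 higher, the astrocyte markers 0.04, the oligodendrocyte markers 0.14, the microglial markers 0.12 and the endothelial and mesenchymal markers −0.17. Rbfox3, which encodes the neuronal antigen NeuN, was lower in 4 of 4 series, with a change of −0.74 (SE 0.52; limma adjusted p = 1.00, and 0.119 in the block fit). Of 20 neuropeptide and granule genes 12 were higher, with a median change of 0.11, and Pdyn, the dynorphin precursor gene, went the other way with −0.96 (SE 0.64), or −0.60 without sham replicate 4 (series D). Cx3cr1, the fractalkine receptor of microglia, was higher in 4 of 4 series, with a change of 0.83 (SE 0.64) that was 0.41 without sham replicate 4 (series D). Zbtb16, a glucocorticoid-responsive factor, had a change of −0.92 (SE 0.59), or −0.51 without the iTBS array of series D. Within series the median of the microglial markers ran from −1.15 in A to 1.45 in D.

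Against later times, the differences from sham at 0 h were not distinguishable by the test. The change at 0 h minus the mean change at 2, 8, 24 and 48 h passed for 0 probes (limma), with 894 at an unadjusted p under 0.05. It passed for 0 in the block fit, with 5335 at an unadjusted p under 0.05, and for 0 with 75th percentile scaling. The change at 0 h minus that at 2 h passed for 0 probes, with 213 at an unadjusted p under 0.05 (759 in the block fit). The difference of iTBS from 1 Hz at 0 h also passed for 0 probes, with 529 (2851 in the block fit). All of these share the 0 h iTBS arrays with the comparison of iTBS and sham. Over group means in z-scores, the ribosomal genes had a median change from sham of 0.35 with 1 Hz at 0 h. With iTBS the medians were 0.62, 0.50, −0.32, −0.32 and 0.17 at the 5 successive times. At the last of these, 48 h, series B had an iTBS array and no sham array, and within series A, C and D the medians were −0.09, 0.11 and −0.29, so the sign of 0.17 turned in 2 of 3. For the 37 immediate-early factor genes the medians over group means were −0.15, −0.16, 0.14, 0.09 and −0.14, and within series A, C and D at 48 h they were 0.12, 0.12 and −0.09, with the sign turned in A and C. Compared with untreated control, iTBS at 0 h differed at 2 probes and sham at 1 without a block, and at 336 and 63 in the block fit (limma, adjusted p under 0.05).

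**Figure D5:**
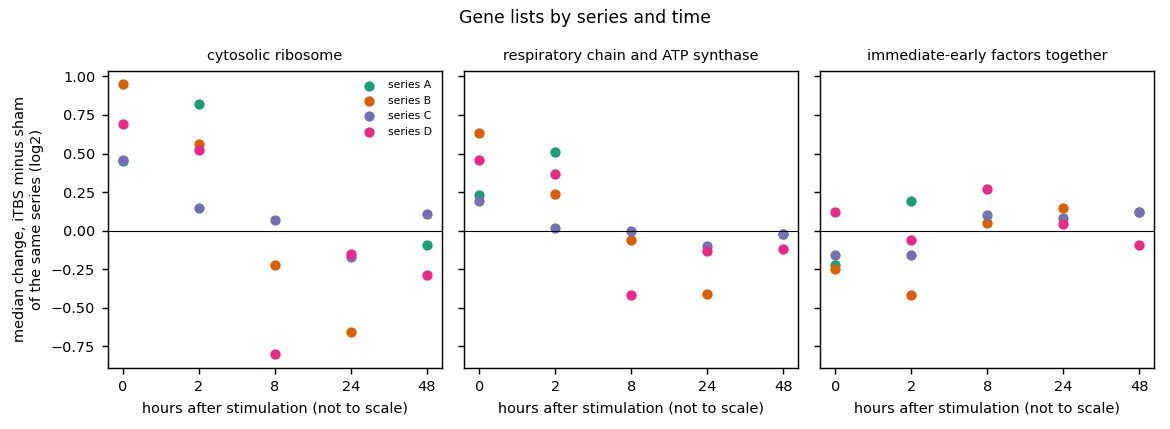
Median change from the sham array of the same series (log2, vertical axis) at each time for the cytosolic ribosome, the respiratory chain and ATP synthase, and the immediate-early factors, with points coloured by series (horizontal axis in hours, not to scale). Values are z-scores within arrays, rescaled to log2 units. Ribosomal genes lie above 0 in all 4 series at 0 and 2 h and below 0 in the 3 series of 24 h. The immediate-early factors lie below 0 in 3 of 4 series at 0 h.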

How the data were processed

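RNA of 56 cultures was hybridised to 1-colour Agilent rat arrays. The authors' scanner files hold processed signal intensity per spot, already background-subtracted by Agilent Feature Extraction 12.0.3.1 (build rn4 per the file headers); a deposited value table holds z-scores, a score that differed from z-scores of the log10 signals by at most 0.005. Here the log2 processed signals, without outlier-flagged and control spots, were averaged per probe, z-scored within each array and multiplied by the median SD of 4.06. One array of 1 Hz with a misplaced grid was left out. Of 45598 probes, 420 had no value on some array and 9484 were well above background on fewer than 3 of 55 arrays, which left 35694. Of these, 17732 probes had a symbol through their accession in the RefSeq table of GRCr8 (13888 genes). Per gene, the probe of highest mean signal was used. Array data give no read depth, and the number of arrays limits the precision.

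Group means were fitted with limma 3.58.1 in R 4.3.3 over 55 arrays in 16 groups (39 residual degrees of freedom), two-sided, with Benjamini-Hochberg adjustment at 0.05, and were tested on simulated data. Series were read from the sample numbers in the descriptions. Deviations from group means correlated at 0.49 to 0.60 within the 4 sham and iTBS pairs of a series and at −0.37 to 0.00 in the 12 other combinations, so the series pairs the arrays, and a fit that blocks on series within each time point, the block fit (24 residual degrees of freedom) is given beside the other. The alternatives were 75th percentile scaling, quantile normalization, normexp on the median and local background signals (offset 50), filters, blocks, slides, the methods' criteria and leaving out arrays or series.

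Named genes were probes past the threshold in any fit of the design, the 8 with the smallest p in each direction that had a symbol, up to 4 per list (2 of smallest p, 2 of highest signal), and Fos, Arc, Egr1, Npas4, Junb, Nr4a1 and Bdnf. Members and lists were chosen with earlier results of these data known. Some genes that this rule names are not reported here.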

Additional observations from a re-analysis of the deposited data

Results flagged for a closer look

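In 124 groups of 4 arrays, those of the 62 genes and probes named in the text, 4 held an array whose gap to its nearest neighbour took more of the range of the group than Dixon's critical value for 4, which chance gives in about 1 of 20 groups. They were Mafk in iTBS, where the array of series D lay low (0.96 of the range), Ndufa4 and Cox6c in iTBS, where the array of series B lay high (0.912 and 0.855), and LOC102547275 in sham, where the array of series D lay low (0.885). Over all 179 probes that the naming rule picks, 16 of 358 groups held such an array.

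The median change of the cytosolic ribosome genes was above 0 in each of the 4 series at 0 h and below 0 in each of the 3 series at 24 h, where it was −0.66, −0.17 and −0.15 in B, C and D, with a median over series of −0.17. The respiratory chain and ATP synthase genes were likewise above 0 in each series at 0 h and below 0 in each at 24 h (median over series −0.13) and at 48 h (−0.02). Over the group means at 48 h, where iTBS has an array of series B and sham has none, the respiratory chain median was 0.12, of the opposite sign. These medians are given in z-scores alone. With quantile normalization the medians at 0 h were 0.03 for the ribosome and 0.01 for the respiratory chain. The SD of an array at 24 h was 4.02 to 4.15 with iTBS and 3.87 to 4.07 with sham. At 0 h it was 3.76 to 4.00 with iTBS and 4.11 to 4.17 with sham. These differences between times, and the part of the SD in them, were not tested.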

How the results depend on the processing

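No probe passed with z-scores and no block. The count was 1 with 75th percentile scaling, 1 with quantile normalization, 1 with a stricter filter, 1 with slide as a block and 1 with the series as a block over 55 arrays. By the methods' criteria as applied here, with the false discovery rate taken over all probes tested, it was 7. The paper's own list for this comparison is far longer, and the reason was not tested. The count was 11 in the block fit and 0 to 1 when single arrays were left out. It was 0 with normexp, the deposited z-scores, no filter, a trended prior, the 8 arrays alone, or the series as a block in them, where 5238 had an unadjusted p under 0.05. With the replicate block from the numbers in the titles, which is another pairing than the series, 0 passed and 1859 had an unadjusted p under 0.05. In settings chosen after seeing the data, the block fit gave 2 with the 75th percentile, 0 with quantile normalization and 3 with normexp, and 34, 0, 12 and 0 without series A, B, C and D. Against untreated control, iTBS differed at 2 probes (8 with the 75th percentile, 336 in the block fit) and sham at 1 (2 and 63). The cause was not tested.

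The ribosomal median of 0.62 was 0.30 with the 75th percentile, 0.03 with quantile normalization and 0.05 with normexp, and 0.47 to 0.73 without single arrays. The respiratory chain median of 0.39 was 0.16, 0.01 and 0.09, and 0.25 to 0.46. These values were the same with a block. The immediate-early median ran from −0.45 to 0.12 without single arrays. Of 62 genes and probes followed, 60 kept their sign in every setting run. Arc ran from −0.85 to 0.19 without single arrays. Nr4a1 ran from −0.13 to 0.17, was 0.01 with slide as a block, and was 0.09, 0.07 and 0.02 without series A, B and C in both fits with a series block. Signals near background limit Astn2, Kif9, Sema3d, A_44_P782378 and A_44_P1099899 to bounds or to few arrays.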
